A study of Mus musculus with 12 samples.

Results

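The autophagy and lysosome genes are 33 genes for the enzymes, membrane proteins and transport proteins of the lysosome, for the proteins that build the autophagosome, and for transcription factors that control both. They were measured in hearts of control mice, of IDH2 R140Q mutant mice and of IDH2 R172K mutant mice. A gene was read from the probe set that carries its symbol alone in the array platform's probe table. Where a gene had several such probe sets, the brightest over all arrays was used, which applied to 1 member, Map1lc3b. All 33 genes were found, out of 19937 genes with a probe set of their own.

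Each of the 3 groups held 4 arrays of heart RNA. Animals of all groups came from a mixed background of the strains C57BL/6, 129/sv and Balb/c. Per the labels' protocols, the mutant mice received 2 mg of 4-hydroxytamoxifen for 3 days, at the age of 5 weeks. This drug is commonly used to switch on a Cre recombinase fused to a modified estrogen receptor. The sources used here do not give the treatment of the control mice, whether a Cre was used and from which promoter, the interval before dissection or the animals' sex. In both comparisons with control, the mutation and the treatment (the drug, and a Cre if there was one) cannot be told apart. The labels number the arrays as replicates and do not state that these were different animals. The p-values therefore describe the spread among these arrays only, which may be technical.

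IDH2 is the mitochondrial isocitrate dehydrogenase, and both mutant forms are known to make D-2-hydroxyglutarate from 2-oxoglutarate. The study concerns cardiomyopathy in mice with mutant IDH2. The lysosome is an acidic compartment in which hydrolases take apart proteins, sugars and lipids, and autophagy delivers cytoplasm to it in a double membrane called the autophagosome. Heart muscle cells depend on this turnover to replace mitochondria, and inherited loss of LAMP2 (Danon disease), of GLA (Fabry disease) or of acid alpha-glucosidase (Pompe disease) leads to cardiomyopathy. The transcription factors TFEB and TFE3 bind short CACGTG-centred motifs in promoters of many lysosomal genes.

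Values below are log2 intensities, so a difference of 1 is a doubling. They compare a gene between arrays and do not compare 1 gene with another. Differences carry the moderated standard error (SE) of a limma fit to all 12 arrays. A gene counted as changed at a Benjamini-Hochberg adjusted p under 0.05 over all 19937 genes. The R172K arrays were not alike. In the summed macrophage, fibroblast and cardiomyocyte markers given below, replicate 3 lay nearest the control arrays and replicate 4 farthest from them. Single genes did not all follow this order. Limma's array weights were 0.365 and 0.366 for replicates 3 and 4 against 0.901 to 1.962 for the other arrays. Control replicate 3 and R172K replicate 3 had the highest summed intensity of 7 atrial muscle markers (29219 and 21176), and R140Q replicate 4 was the only array with a high sum of 6 lung markers (5056.1, against at most 384.8 in the other 11). The fitted group differences use all 12 arrays unless stated.

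R172K hearts differed from control in part of this gene group. Of 33 genes, 5 rose, all of them coding for lysosomal proteins: the lysosomal growth factor precursor progranulin (Grn), the cathepsins Ctsl and Ctsa, the membrane protein Cd63 and the alpha-galactosidase Gla. None fell and 28 did not pass. These 5 are 15.2% of the group, against 13.0% of all genes called in either direction and 6.23% of all genes called higher, so the share called in either direction lay near that of all genes. At an unadjusted p under 0.05 there were 20 of 33, against 26.6% of all genes. The 4 control and 4 R172K arrays did not overlap in 8 of 33 genes, against 16.2% of all genes.

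In R140Q hearts none of 33 passed (limma, smallest adjusted p = 0.0664 for Becn1, 7 at an unadjusted p under 0.05), where 2.20% of all genes were called and 17.0% had such an unadjusted p. Control and R140Q arrays did not overlap in 8 of 33, against 14.8% of all genes. None of 33 passed between R172K and R140Q either (smallest adjusted p = 0.0897 for Grn, 7 at an unadjusted p under 0.05), where 1.48% of all genes were called and 16.3% had such an unadjusted p.

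By role, the 18 genes for lysosomal proteins had a median difference of 0.26 between R172K and control, with 5 called higher (27.8%, against 6.23% of all genes called higher) and 14 of 18 positive (49.1% of all genes). Among the 13 genes of the autophagy machinery the median was 0.02, with none called by limma (smallest adjusted p = 0.0576, 7 at an unadjusted p under 0.05) and 8 of 13 positive. The roles were not tested against each other, and machinery genes were called in other fits. Leaving out 1 array gave calls without R172K 3 (Wipi1, Atg5, Atg9a and Map1lc3b), R172K 2 (Stbd1), and R172K 4 or control 2 (Gabarapl1). Map1lc3b was also called with the mean of a gene's probe sets, and Gabarapl1 without the dimmest genes. Array weights gave Wipi1, Atg5, Atg9a, Map1lc3b and Gabarapl1, and the fit without control 3, R172K 3 and R140Q 4 gave Wipi1 and Atg5. Over all genes the median was -0.003. The median size of a difference, ignoring its sign, was 0.22 in the 33 genes and 0.11 over all genes in R172K hearts, and 0.16 and 0.09 in R140Q hearts. In the R140Q comparison 24 of 33 differences were positive (50.9% of all genes), with a median of 0.13, and the lysosomal and autophagy genes had medians of 0.14 and 0.12.

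**Figure D1:**
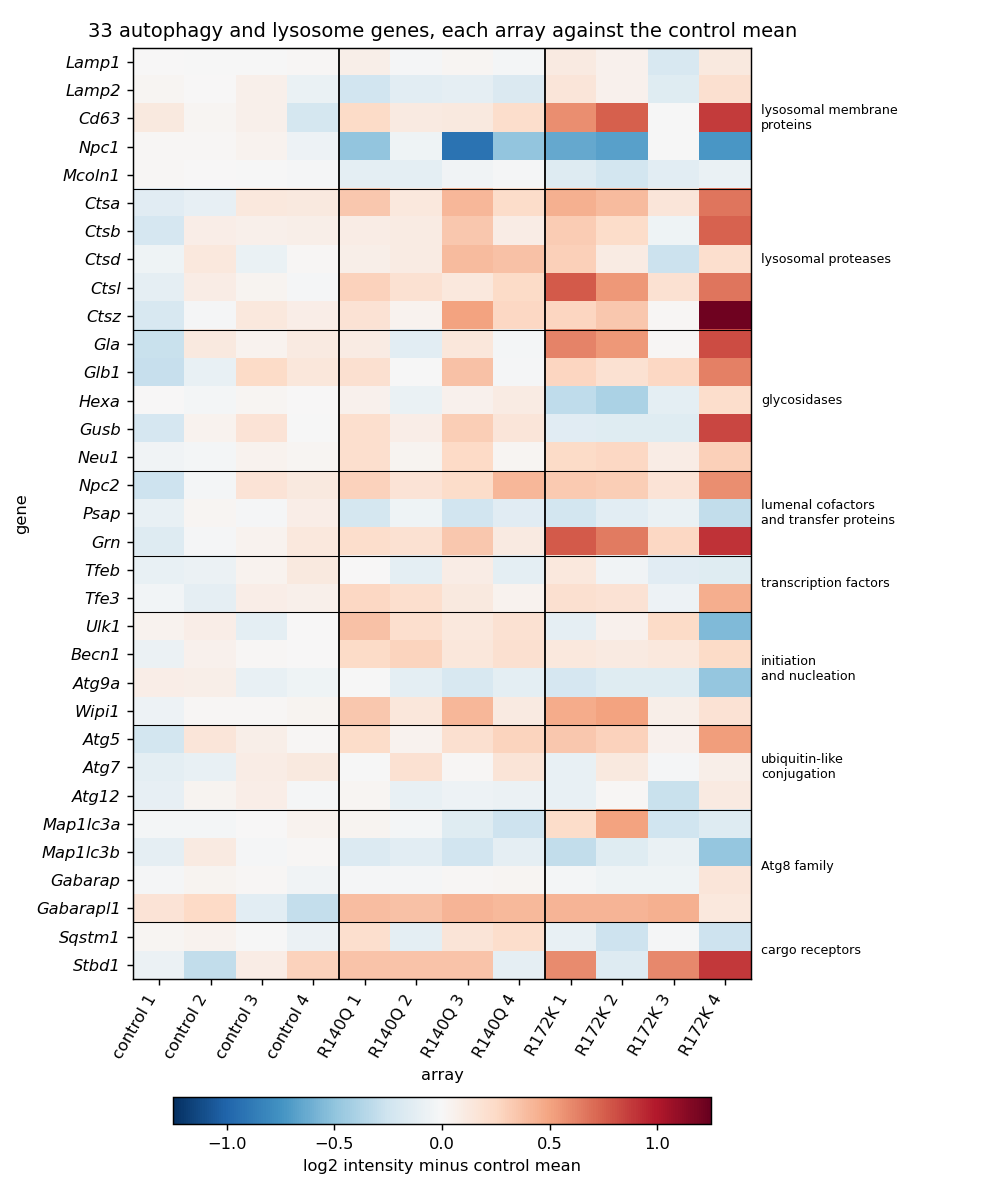
Log2 intensity of the 33 autophagy and lysosome genes in each of the 12 arrays, as the difference from the mean of the 4 control arrays (colour scale in log2 units, rows grouped by role). Grn, Ctsl, Ctsa, Cd63 and Gla are high in R172K replicates 1, 2 and 4, and R172K replicate 3 lies closer to the control arrays.

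Because lysosomal genes share a known promoter motif, promoters of the group were read from RefSeq (GRCm38.p6) as windows of 250 bases before to 50 bases after a transcription start. Windows were at hand for 28 of 33 genes. The motifs searched were CACGTG and the longer TCACGTGA, each of which reads the same on both strands. The shorter motif was also counted inside the longer one. CACGTG stood in 9 of 28 genes (32.1%), against 8.09% of 27025 genes with a window searched, and TCACGTGA in 4 of 28 (14.3%), against 1.12%. Of the 9 genes with CACGTG 3 rose in R172K hearts (Ctsa, Ctsl and Gla), and of the other 19 genes 2 rose (Grn and Cd63). A match describes these letters only and shows neither binding nor a cause.

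The stretches below show the motif in capitals for the 3 genes that rose and for 3 others, Lamp1, Mcoln1 and Ctsd, that carry it and did not pass the test. All read 5′ to 3′ on the gene's own strand. The Ctsa and Ctsl stretches lie inside the annotated span of their gene, before a start that RefSeq lists.
Ctsa, chr2:164833743-164833772, plus strand: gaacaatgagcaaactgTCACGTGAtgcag
Ctsl, chr13:64370741-64370770, minus strand: gcggcgttagaagcCACGTGctgatctaaa
Gla, chrX:134601186-134601245, minus strand: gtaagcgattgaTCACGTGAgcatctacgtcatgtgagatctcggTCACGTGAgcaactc
Lamp1, chr8:13159096-13159155, plus strand: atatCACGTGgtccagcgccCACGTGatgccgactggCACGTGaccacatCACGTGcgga
Mcoln1, chr8:3500429-3500488, plus strand: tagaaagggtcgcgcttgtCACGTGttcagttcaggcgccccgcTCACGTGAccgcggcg
Ctsd, chr7:142387898-142387957, minus strand: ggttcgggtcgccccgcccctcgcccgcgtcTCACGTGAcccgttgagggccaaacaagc
The Lamp1 stretch holds 4 copies of CACGTG, at 61, 45, 28 and 15 bases before the start. The Gla stretch holds 2 copies of the longer motif, at 228 and 195 bases before the start. Lamp1, with 4 copies, differed from control by less than its SE in both mutants, and Ctsl, with 1 copy in its window, was called in R172K hearts.

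The proteases of the lysosome gave 2 of the 5 calls. Ctsl, a cysteine protease that degrades proteins delivered to the lysosome and whose loss in mice is known to cause dilated cardiomyopathy, measured 10.55, 10.76, 10.70 and 10.65 in the control arrays. It measured 10.95, 10.86, 10.80 and 10.90 in the R140Q arrays and 11.43, 11.21, 10.86 and 11.33 in the R172K arrays. Every mutant array lay above every control array, and R172K replicate 3 fell within the R140Q range. Ctsl rose by 0.54 ± 0.10 (SE, 1.45-fold) in R172K hearts (limma adjusted p = 0.00715). In R140Q hearts its difference of 0.21 ± 0.10 did not pass (adjusted p = 0.335), although the arrays did not overlap.

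Ctsa, a serine carboxypeptidase that also protects the galactosidase Glb1 and the sialidase Neu1 in a complex, measured 10.37, 10.41, 10.64 and 10.63 in control arrays. The R140Q arrays held 10.85, 10.64, 10.93 and 10.74, and the R172K arrays held 10.96, 10.91, 10.66 and 11.18. The control arrays were the 4 lowest, but R140Q replicate 2 and R172K replicate 3 lay just above the highest of them. Ctsa rose by 0.41 ± 0.11 (1.33-fold) in R172K hearts (limma adjusted p = 0.0263), and its R140Q difference was 0.28 ± 0.11 (adjusted p = 0.211).

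The other 3 proteases did not pass in any comparison. The cysteine protease Ctsb had means of 11.13 ± 0.14, 11.29 ± 0.12 and 11.44 ± 0.33 (SD, n = 4 each) in the control, R140Q and R172K groups, the order kept below. The carboxypeptidase Ctsz had 8.90 ± 0.15, 9.15 ± 0.19 and 9.36 ± 0.52, where R172K replicate 4 stood at 10.12 and the other 3 R172K arrays between 8.91 and 9.24. The aspartic protease Ctsd had 12.26 ± 0.10, 12.49 ± 0.17 and 12.34 ± 0.25. The R172K arrays of Ctsb, Ctsz and Ctsd overlapped the control arrays. The R140Q arrays overlapped them for Ctsz and Ctsd but not for Ctsb. Leaving out R172K replicate 4 lowered the mean of Ctsz in R172K hearts below that in R140Q hearts, so the order of the mutants for this gene rests on that array.

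**Figure D2:**
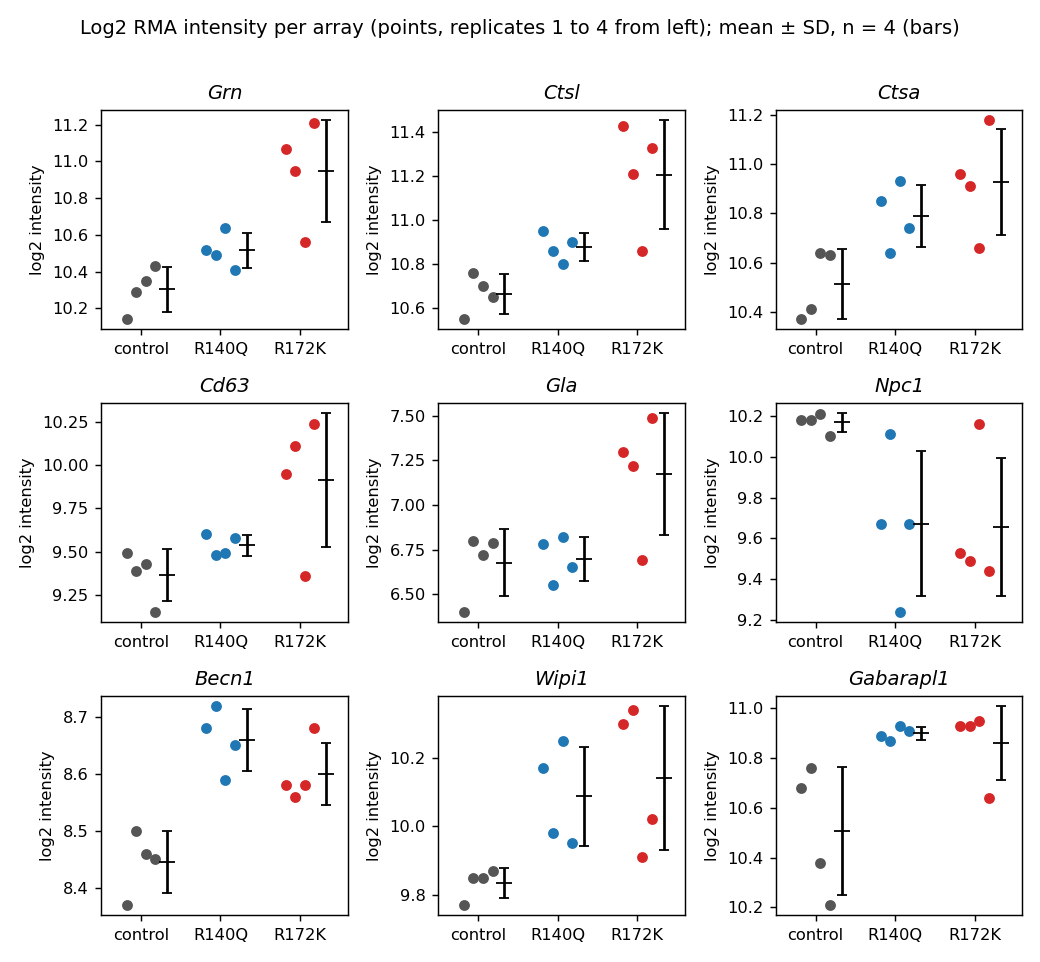
Log2 intensity of 9 genes in each array (points, replicates 1 to 4 from the left), with the mean ± SD of each group of 4 (bars). Grn, Ctsl, Ctsa, Cd63 and Gla are the genes called in R172K hearts, and Npc1, Becn1, Wipi1 and Gabarapl1 were added after their values were seen. R172K replicate 3 lies at or near the control range for Cd63, Gla and Npc1, and all mutant arrays lie above the control arrays for Ctsl, Becn1 and Wipi1.

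Among the lumenal proteins, Grn showed the largest increase of the group. Progranulin is delivered to the lysosome, where its granulin fragments support hydrolase function, and it is also made in quantity by macrophages. Grn measured 10.14, 10.29, 10.35 and 10.43 in control arrays, 10.52, 10.49, 10.64 and 10.41 in R140Q arrays, and 11.07, 10.95, 10.56 and 11.21 in R172K arrays. All R172K arrays lay above all control arrays, while R140Q replicate 4 lay within the control range. Grn rose by 0.65 ± 0.12 (1.56-fold) in R172K hearts (limma adjusted p = 0.00603), and the R140Q difference of 0.21 ± 0.12 did not pass (adjusted p = 0.419).

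Npc2, which hands cholesterol from the lumen to the membrane protein Npc1, had means of 8.06 ± 0.19, 8.34 ± 0.11 and 8.41 ± 0.17. Its R172K difference of 0.34 missed the threshold narrowly (limma adjusted p = 0.053). Prosaposin (Psap), the precursor of the saposins that present sphingolipids to their hydrolases, had 12.48 ± 0.07, 12.32 ± 0.09 and 12.29 ± 0.10, with differences of -0.16 (adjusted p = 0.263) and -0.19 (adjusted p = 0.106).

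Cd63, a tetraspanin of late endosomes, lysosomes and exosomes, was the membrane protein called. It measured 9.49, 9.39, 9.43 and 9.15 in control arrays, 9.60, 9.48, 9.49 and 9.58 in R140Q arrays and 9.95, 10.11, 9.36 and 10.24 in R172K arrays. R172K replicates 1, 2 and 4 stood above all other arrays, and replicate 3 lay inside the control range. Cd63 rose by 0.55 ± 0.15 (1.46-fold) in R172K hearts (limma adjusted p = 0.0339), and the R140Q difference was 0.17 ± 0.15 (adjusted p = 0.643).

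Npc1, the membrane protein that exports cholesterol from the lysosome, had the largest negative differences of the group and passed in neither mutant. Control arrays measured 10.18, 10.18, 10.21 and 10.10, R140Q arrays 9.67, 10.11, 9.24 and 9.67, and R172K arrays 9.53, 9.49, 10.16 and 9.44. The control arrays lay close together, and 1 array of each mutant lay inside their range, R140Q replicate 2 and R172K replicate 3. The differences were -0.50 ± 0.18 in R140Q (limma adjusted p = 0.161) and -0.52 ± 0.18 in R172K hearts (adjusted p = 0.0742). Without R172K replicate 3, Npc1 passed in R172K hearts. Npc1 and its partner Npc2 thus had differences of opposite sign in both mutants.

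The abundant membrane glycoproteins Lamp1 and Lamp2, which line the lysosome, did not pass. Lamp1 was nearly constant, at 11.41 ± 0.01, 11.42 ± 0.05 and 11.43 ± 0.15 in control, R140Q and R172K hearts. Lamp2, which autophagosome fusion needs in heart muscle, had 10.90 ± 0.06, 10.73 ± 0.06 and 10.96 ± 0.15. Each R140Q array of Lamp2 (10.66 to 10.79) lay below each control array (10.81 to 10.96), with a difference of -0.16 (limma adjusted p = 0.301). The calcium channel Mcoln1 had 9.84 ± 0.01, 9.77 ± 0.06 and 9.69 ± 0.06, and its R172K arrays all lay below the control arrays with a difference of -0.15 (adjusted p = 0.0939).

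Of 5 glycosidases only Gla was called. Gla removes terminal galactose from glycolipids, and its loss causes Fabry disease. It measured 6.40, 6.80, 6.72 and 6.79 in control arrays, 6.78, 6.55, 6.82 and 6.65 in R140Q arrays and 7.30, 7.22, 6.69 and 7.49 in R172K arrays. As for Cd63, R172K replicates 1, 2 and 4 stood above all other arrays and replicate 3 lay within the control range. Gla rose by 0.50 ± 0.15 (1.41-fold) in R172K hearts (limma adjusted p = 0.0451), while the R140Q mean differed from control by 0.02 ± 0.15 (adjusted p = 0.965, 95% interval -0.30 to 0.35).

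The beta-galactosidase Glb1 had means of 7.97 ± 0.23, 8.10 ± 0.18 and 8.30 ± 0.20 in control, R140Q and R172K hearts (R172K adjusted p = 0.118 by limma). The sialidase Neu1 had 7.36 ± 0.04, 7.49 ± 0.12 and 7.58 ± 0.09, and all R172K arrays lay above all control arrays without a call (adjusted p = 0.0628). The beta-hexosaminidase subunit Hexa had 9.39 ± 0.02, 9.41 ± 0.08 and 9.23 ± 0.28. The beta-glucuronidase Gusb had 7.32 ± 0.16, 7.51 ± 0.09 and 7.42 ± 0.49, and its R172K mean was carried by replicate 4 at 8.16 against 7.17 to 7.18 in the other 3.

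**Figure D3:**
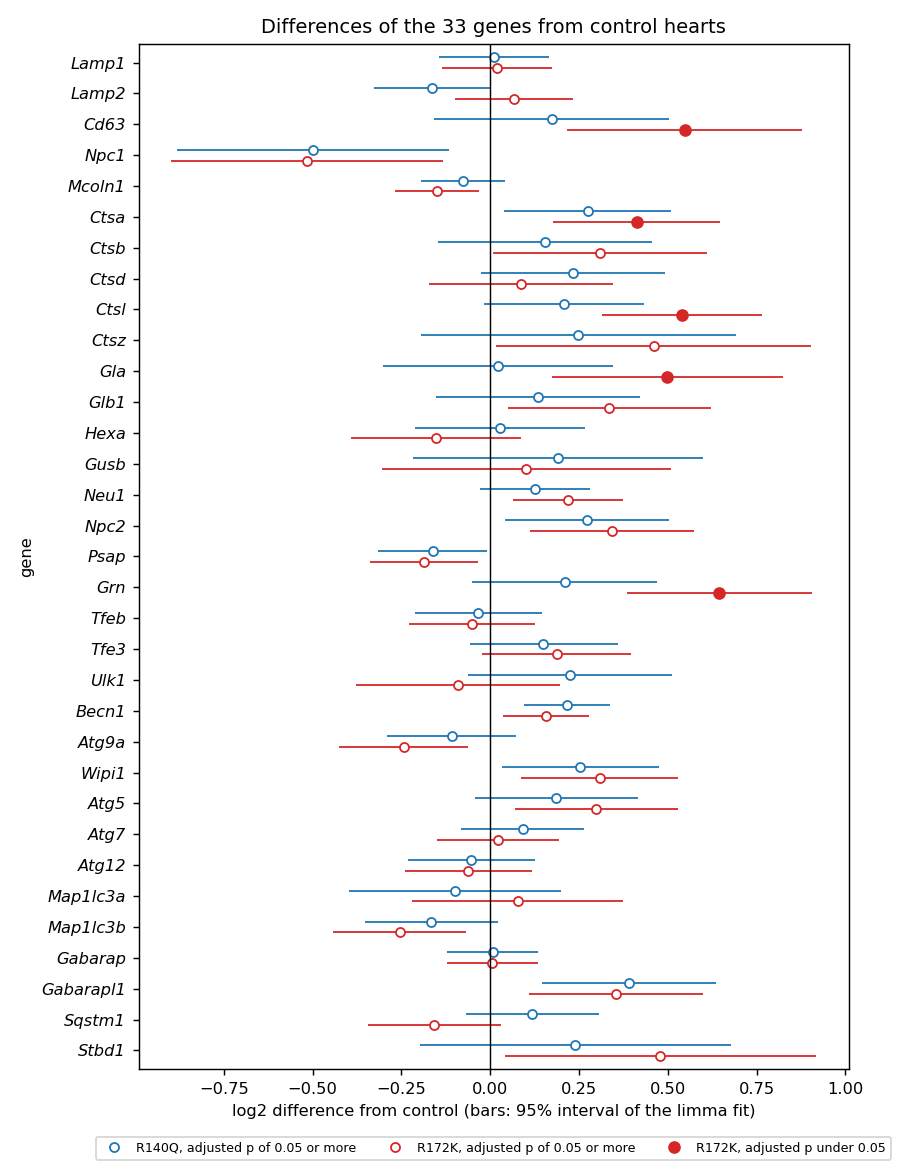
Log2 difference from control of each of the 33 genes in R140Q and R172K hearts (points), with the 95% confidence interval of the limma fit (lines) and filled symbols for an adjusted p under 0.05. Grn, Ctsl, Ctsa, Cd63 and Gla are called in R172K hearts and none is called in R140Q hearts.

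Transcripts of the transcription factors did not pass. Tfeb, the main activator of lysosomal genes, had means of 8.38 ± 0.10, 8.35 ± 0.11 and 8.33 ± 0.13 in control, R140Q and R172K hearts. Its relative Tfe3 had 7.67 ± 0.09, 7.82 ± 0.10 and 7.86 ± 0.21, with an R172K difference of 0.19 (limma adjusted p = 0.243). Both factors are known to be controlled by moving between cytoplasm and nucleus, which an RNA array does not measure.

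The initiation genes had several groups that did not overlap and no call. Beclin 1 (Becn1), a subunit of the lipid kinase complex that starts the autophagosome membrane, measured 8.37, 8.50, 8.46 and 8.45 in control arrays, 8.68, 8.72, 8.59 and 8.65 in R140Q arrays and 8.58, 8.56, 8.58 and 8.68 in R172K arrays. All 8 mutant arrays lay above the 4 control arrays, with differences of 0.22 ± 0.06 in R140Q (limma adjusted p = 0.0664) and 0.16 ± 0.06 in R172K hearts (adjusted p = 0.0877). Without either R172K replicate 3 or R172K replicate 4, whose spread enters the shared estimate, Becn1 was the 1 gene of 33 called in R140Q hearts, where 5.09% and 4.93% of all genes were called.

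Wipi1, which binds the phosphoinositide that this kinase makes, measured 9.77, 9.85, 9.85 and 9.87 in control arrays, 10.17, 9.98, 10.25 and 9.95 in R140Q arrays and 10.30, 10.34, 9.91 and 10.02 in R172K arrays. Here too the mutant arrays lay above the control arrays, with 0.25 ± 0.10 (limma adjusted p = 0.22) and 0.31 ± 0.10 (adjusted p = 0.0654). The kinase gene Ulk1, which receives the starvation signal, had means of 9.37 ± 0.08, 9.59 ± 0.10 and 9.28 ± 0.33. The 4 R140Q arrays of Ulk1 lay above the control arrays (adjusted p = 0.438), and the R172K arrays ran from 8.82 in replicate 4 to 9.61 in replicate 3. Atg9a, the membrane protein that seeds the autophagosome, had 9.36 ± 0.09, 9.26 ± 0.08 and 9.12 ± 0.16, with a R172K difference of -0.24 (adjusted p = 0.0752) and no overlap with control.

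The conjugation genes, which attach Atg8 proteins to the membrane, were not called. Atg5 had means of 7.12 ± 0.17, 7.31 ± 0.11 and 7.42 ± 0.19 (R172K adjusted p = 0.0834 by limma), its partner Atg12 had 7.78 ± 0.08, 7.72 ± 0.05 and 7.71 ± 0.17, and the activating enzyme Atg7 had 7.74 ± 0.13, 7.83 ± 0.10 and 7.76 ± 0.10.

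The Atg8 proteins coat the autophagosome, and the differences of the 4 measured genes had both signs. Gabarapl1 measured 10.68, 10.76, 10.38 and 10.21 in control arrays, 10.89, 10.87, 10.93 and 10.91 in R140Q arrays and 10.93, 10.93, 10.95 and 10.64 in R172K arrays. The R140Q arrays lay close together and above all control arrays, and R172K replicate 4 lay in the control range. The differences were 0.39 ± 0.11 (limma adjusted p = 0.0916) and 0.35 ± 0.11 (adjusted p = 0.0576). Map1lc3b, the LC3 protein most used as a marker of autophagosomes, had 11.26 ± 0.09, 11.10 ± 0.05 and 11.01 ± 0.18, with differences of -0.17 (adjusted p = 0.363) and -0.26 (adjusted p = 0.0706). Its dimmer second probe set had linear intensities of 587 to 710 in control, 529 to 593 in R140Q and 390 to 581 in R172K arrays. There the control and R172K arrays did not overlap. With the mean of both probe sets Map1lc3b was called lower in R172K hearts. Gabarap was nearly constant at 12.19 ± 0.03, 12.20 ± 0.02 and 12.20 ± 0.10, and Map1lc3a had 10.76 ± 0.03, 10.66 ± 0.13 and 10.83 ± 0.35.

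The cargo receptors did not pass. Sqstm1 (p62), which ties ubiquitin-marked cargo to Atg8 proteins, had means of 11.77 ± 0.05, 11.89 ± 0.16 and 11.61 ± 0.12 in control, R140Q and R172K hearts. Its difference between R172K and R140Q was -0.28 ± 0.09 (limma adjusted p = 0.127). Stbd1, which binds glycogen and Gabarapl1, was dim (5.58 to 6.78 over all arrays), and its means were 5.89 ± 0.26, 6.13 ± 0.24 and 6.37 ± 0.45.

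The direct comparison of the mutants gave no call among the 33 genes, and no gene's R172K and R140Q arrays separated fully (7.72% of all genes did). The differences of the genes called against control ranged from 0.14 ± 0.11 for Ctsa (95% interval -0.10 to 0.37) to 0.48 ± 0.15 for Gla (0.15 to 0.80). Grn differed by 0.43 ± 0.12 (limma adjusted p = 0.0897), Ctsl by 0.33 ± 0.10 (0.13) and Cd63 by 0.38 ± 0.15 (0.241). The call of these 5 genes in R172K hearts alone is therefore not shown to differ from their result in R140Q hearts. Both comparisons with control use the same 4 control arrays.

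The R172K count depended on single arrays. Without R172K replicate 3 it was 16 of 33 (12 higher and 4 lower, 48.5%), where 20.9% of all genes were called. The 5 genes were among them, joined on the higher side by Ctsb, Ctsz, Neu1, Npc2, Tfe3, Wipi1 and Atg5 and on the lower side by Npc1, Psap, Atg9a and Map1lc3b. Without R172K replicate 4 it was 4 of 33, where 10.0% of all genes were called, namely Grn, Ctsl and Gabarapl1 higher and Hexa lower. It was 2 (6.06%) without control 1 or R172K 1, where 7.82% and 6.66% of all genes were called, and 3 (9.09%) without control 2, control 4 or R172K 2, where 7.42%, 9.14% and 8.75% were called. In these 5 fits the share of the 33 genes was near or below that of all genes called in either direction. All calls among the 33 in these fits were higher, where 2.81% to 3.95% of all genes were called higher. Grn (0.56 to 0.77, adjusted p up to 0.0246) and Ctsl (0.47 to 0.65, adjusted p up to 0.0252) passed whichever array was left out. Ctsa did not pass without control 1, control 2, R172K 1, R172K 2 or R172K 4 (limma adjusted p from 0.0569 to 0.0792). Cd63 did not pass without any of the control arrays or R172K 1, 2 or 4 (0.0556 to 0.0932), and Gla passed only when R172K 3 was left out (0.0523 to 0.13 for the other 11 arrays). Between the mutants, 6 of 33 passed without R172K replicate 3, where 7.91% of all genes were called: Lamp2, Cd63, Ctsl, Gla and Grn were higher and Sqstm1 was lower in R172K hearts.

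A wider list of 138 measured autophagy and lysosome genes, none of them among the 33, was read the same way. In R172K hearts 26 rose and 12 fell, 27.5% of the list against 13.0% of all genes, and the median difference was 0. In R140Q hearts 2 rose and 2 fell (2.9% against 2.20%). Without R172K replicate 3 the R172K count was 58 and the R140Q count 10, where 20.9% and 5.09% of all genes were called. The R172K count was 20, 22, 16 and 25 without control 1, control 2, R172K 1 and R172K 2, where 7.82%, 7.42%, 6.66% and 8.75% of all genes were called. The R140Q count was 0 without control 1, 2 or 3 or R140Q 1 or 3, where 0.502% to 0.803% of all genes were called. It was 1 without R140Q 4, R172K 1 or R172K 2 (1.30% to 1.69% of all genes), 2 without control 4 (1.52%) and 10 without R172K 4 (4.93%).

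**Figure D4:**
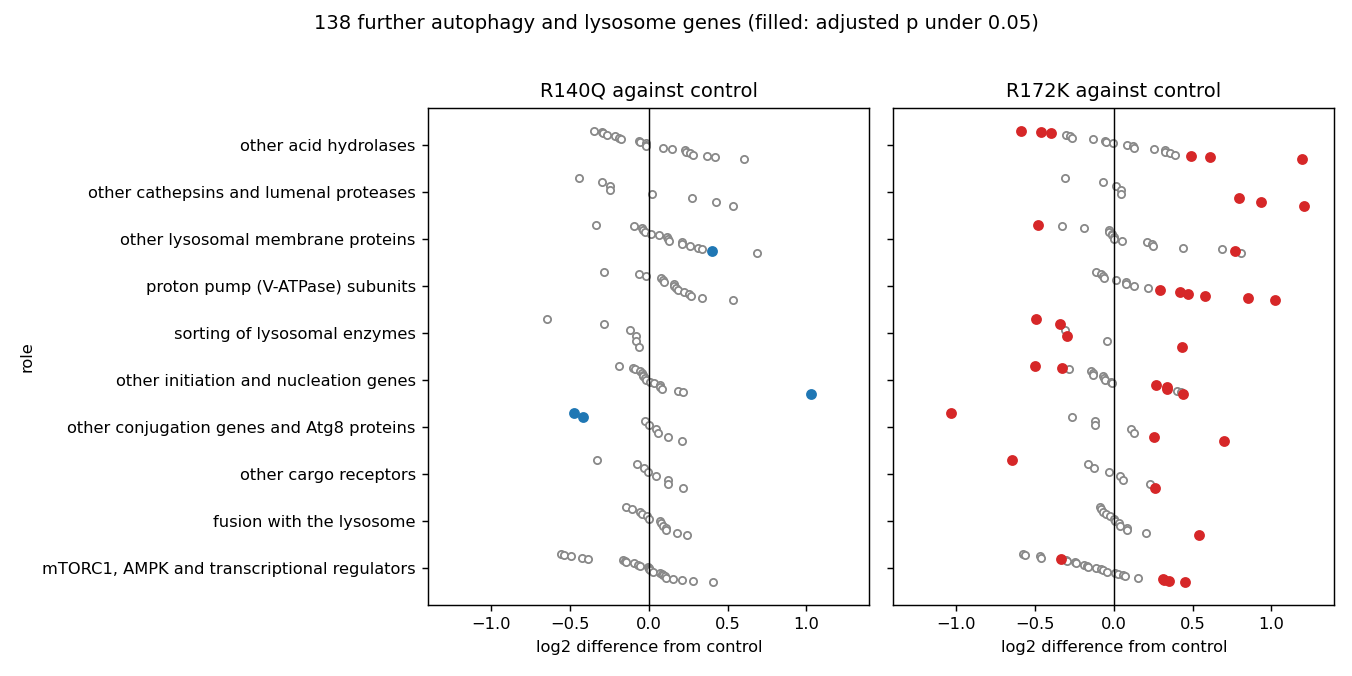
Log2 difference from control of the 138 further autophagy and lysosome genes in R140Q and R172K hearts, by role (1 point a gene, filled where the adjusted p was under 0.05). The proton pump subunits called in R172K hearts all lie above 0, and 3 of the 4 called sorting genes lie below 0.

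The proton pump (V-ATPase) that acidifies the lysosome had 6 of 15 subunits higher and none lower in R172K hearts. Of all genes, 6.23% were called higher and 13.0% in either direction in this comparison, the background for each count by role given here and below. No role was tested against the rest. Atp6v1h measured 7.68, 7.76, 7.75 and 7.62 in control arrays, 8.26, 8.09, 8.39 and 8.22 in R140Q arrays and 8.96, 8.98, 7.97 and 8.98 in R172K arrays. No mutant array reached down to the control range, and R172K replicate 3 was the lowest of the 8. Atp6v1h rose by 1.02 (limma adjusted p = 0.00544), the nucleotide-binding subunit Atp6v1b2 by 0.85 (adjusted p = 0.00315) and the catalytic subunit Atp6v1a by 0.47 (adjusted p = 0.0168). In R140Q hearts none of the 15 passed (limma, smallest adjusted p = 0.121, 6 at an unadjusted p under 0.05).

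Hydrolases outside the 33 moved both ways in R172K hearts. Of 21 genes listed as acid hydrolases, which include the acetyltransferase gene Hgsnat, 3 rose and 3 fell. Galns, a sulfatase of keratan sulfate, measured 6.88, 6.70, 6.89 and 6.84 in control arrays, 7.48, 7.35, 7.66 and 7.22 in R140Q arrays and 8.24, 8.22, 7.36 and 8.24 in R172K arrays. The control arrays were the lowest throughout, and Galns rose by 1.19 ± 0.17 (limma adjusted p = 0.00212) in R172K hearts, with 0.60 in R140Q hearts (adjusted p = 0.0909). The iduronidase gene Idua fell by 0.40 (adjusted p = 0.0027) and the tripeptidyl peptidase gene Tpp1 by 0.59 (adjusted p = 0.0063). The list of 8 further cathepsins and lumenal proteases included Cst3, which codes for an inhibitor of cathepsins. Of these 8 genes 3 rose, Ctss (1.21, limma adjusted p = 0.0275), the collagen-degrading Ctsk (0.94, adjusted p = 0.0289) and Ctsh (0.79, adjusted p = 0.0199).

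Of 6 genes that sort enzymes to the lysosome, 3 fell and 1 rose in R172K hearts. Gnptab, the catalytic subunit of the enzyme that adds the mannose phosphate sorting tag, fell by 0.50 (limma adjusted p = 0.013), and Nagpa, which uncovers the tag, fell by 0.30 (adjusted p = 0.0199). Sumf1, which activates sulfatases such as Galns, rose by 0.43 (adjusted p = 0.0337). Of 17 further membrane proteins, the late endosomal protein Litaf rose by 0.77 (adjusted p = 0.026) and the transporter gene Mfsd8 fell by 0.48 (adjusted p = 0.0135) in R172K hearts. Ostm1, the partner of the lysosomal chloride transporter Clcn7, rose by 0.40 in R140Q hearts (adjusted p = 0.0445).

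The largest decrease of the wider list was in the conjugation genes. Atg10, the enzyme that joins Atg12 to Atg5, measured 9.58, 9.72, 9.56 and 9.55 in control arrays, 8.90, 9.26, 8.93 and 9.40 in R140Q arrays and 8.43, 8.70, 8.62 and 8.52 in R172K arrays. The groups did not overlap, and each R172K array lay below each R140Q array. Atg10 fell by 1.03 ± 0.11 in R172K hearts (limma adjusted p = 0.000678) and by 0.48 in R140Q hearts (adjusted p = 0.0445), and the mutants differed by -0.56 (adjusted p = 0.0378). That difference between the mutants did not pass without any 1 array other than R172K 3 or R172K 4 (adjusted p up to 0.131). Atg5 and Atg12, the proteins it joins, did not pass. The Atg8-processing protease gene Atg4a rose by 0.70 in R172K hearts (adjusted p = 0.0115), where its relative Atg4c had a difference of -0.26 (adjusted p = 0.0633), and Atg4c fell by 0.42 in R140Q hearts (adjusted p = 0.03).

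Of 17 further initiation genes 4 rose and 2 fell in R172K hearts. Ulk2, the relative of Ulk1, fell by 0.50 (limma adjusted p = 0.00544), and the beclin 1 regulator Ambra1 rose by 0.34 (adjusted p = 0.00966). The beclin-binding Bcl2 rose by 1.03 in R140Q hearts (adjusted p = 0.0429), where replicates 1, 3 and 4 stood at 9.69, 9.45 and 9.64 and replicate 2 at 8.47, near the highest control array at 8.40. Among 8 further cargo receptors the receptor gene Calcoco1, which acts on the endoplasmic reticulum, fell by 0.65 (adjusted p = 0.0213) and the mitophagy receptor gene Bnip3l rose by 0.26 (adjusted p = 0.0412) in R172K hearts. Of 13 fusion genes the tethering subunit Vps11 rose by 0.54 (adjusted p = 0.00772).

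Of 25 genes that regulate the pathway through mTORC1, AMPK or transcription, 4 rose and 1 fell in R172K hearts. The scaffold gene Lamtor3 (0.32, limma adjusted p = 0.0112) and the GTPase gene Rraga (0.31, adjusted p = 0.017), which place mTORC1 on the lysosome, rose. Zkscan3, a repressor of autophagy and lysosome genes, fell by 0.33 (adjusted p = 0.0161). Of the 24 R172K calls named here from the wider list 15 held in all 22 alternative fits. The other 9 were lost without some arrays. Rraga was lost without R172K 1 (adjusted p = 0.0565), and Ctsh without control 2 or R172K 1 (up to 0.0656). Calcoco1 was lost without control 1, control 2 or R172K 1 (up to 0.0624), and Ctss and Nagpa without control 1, control 2, R172K 1 or R172K 2 (up to 0.0798 and 0.0668). Ctsk and Litaf were lost without control 1, control 2, control 4 or R172K 1 (up to 0.0837 and 0.0755), and Sumf1 without these or R172K 2 or 4 (up to 0.103). Bnip3l was lost without 10 of the 12 arrays, control 3 and R172K 3 excepted (up to 0.113). The 4 R140Q calls were each lost on leaving out any of 7 or more single arrays (Atg10 up to 0.139, Atg4c up to 0.0843, Bcl2 up to 0.127 and Ostm1 up to 0.133), control 1 and R140Q 3 among them for each.

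Markers of several cell types differed between the groups as well. In whole heart RNA, fewer cells of a type and less RNA per cell cannot be told apart. The summed intensity of 23 macrophage markers ran from 4699.5 to 6941.5 in control arrays and from 5780.3 to 6911.2 in R140Q arrays. In R172K arrays it was 7800.5, 7362.5, 5061.3 and 13478.7 for replicates 1 to 4, so replicate 3 lay inside the control range and replicate 4 stood highest. All 23 markers had positive differences in R172K hearts, and 4 passed (17.4%, against 13.0% of all genes): Ctss, Ccr2 (1.20), Fcgr3 (1.09) and Lgals3 (0.88). In R140Q hearts none of 23 passed (limma, smallest adjusted p = 0.158, 1 at an unadjusted p under 0.05). The macrophage scavenger protein Cd68 had an R172K difference of 0.81 (limma adjusted p = 0.114) and the growth factor receptor Csf1r 0.31 (adjusted p = 0.27). Adgre1, a classical marker of mouse macrophages, measured 7.17, 7.12 and 6.99 in R172K replicates 1 to 3, within or below the control range of 7.02 to 7.55, and 8.74 in replicate 4. Cd68, Ctss and Laptm5 belong to the wider list of lysosomal genes as well.

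**Figure D5:**
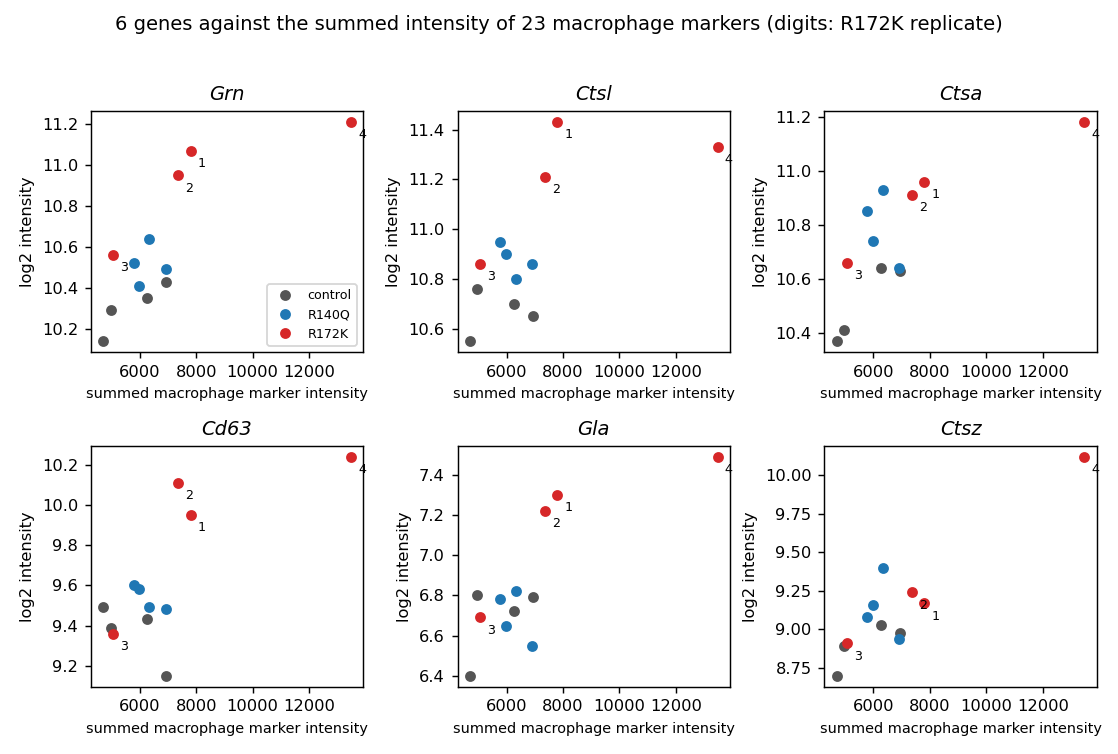
Log2 intensity of Grn, Ctsl, Ctsa, Cd63, Gla and Ctsz (vertical axis) against the summed intensity of 23 macrophage markers (horizontal axis) in each of the 12 arrays. R172K replicate 4 has the highest marker sum, 13478.7, and R172K replicate 3, at 5061.3, lies among the control arrays.

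Fibroblast, heart muscle and endothelial markers also differed in R172K hearts. Summed over 11 fibroblast markers the intensity was 11220.7 to 15323.9 in control, 11921.8 to 17632.3 in R140Q and 13806.7 (replicate 3) to 27460.5 (replicate 4) in R172K arrays. Of the 11, 6 rose in R172K hearts (Postn, Fbln2, Col1a1, Col3a1, Col1a2 and Pdgfra) and 1, Fbln1, fell (63.6% called, against 13.0% of all genes). The other 4 did not pass, Lum (0.195), Tcf21 (0.116), Dcn (0.097) and Dpt (-0.355). Summed over 12 cardiomyocyte markers the intensity was 110349.7 to 115421.3 in control, 100402.5 to 106175.9 in R140Q and 84736.6 (replicate 4) to 103045.4 (replicate 3) in R172K arrays. In R172K hearts 6 of 12 fell (50%, against 13.0% of all genes), Myl2, Ryr2, Ttn, Tnni3, Pln and Atp2a2. The other 6 did not pass, with differences from -0.262 (Myh6) to 0.011 (Tnnc1). In R140Q hearts none of 12 passed (limma, smallest adjusted p = 0.169). There 5 had an unadjusted p under 0.05, against 17.0% of all genes. Both mutants thus lay below control in the summed cardiomyocyte markers, without a single call in R140Q hearts. Summed over 8 endothelial markers it was 8121.2 to 8647.8 in control, 10207 to 10831.6 in R140Q and 8965.4 to 10404.5 in R172K arrays, so every mutant array lay above every control array. Of these 8, the junction gene Cdh5 (0.45), the VEGF receptor gene Kdr (0.45) and Esam (0.49) rose in R140Q hearts (37.5%, against 2.20% of all genes). In R172K hearts Kdr (0.53) and Esam (0.43) rose (25%, against 13.0% of all genes). The other 6 endothelial markers did not pass in R172K hearts, with differences from -0.024 to 0.187. In the fit without R172K replicate 4 Grn and Ctsl passed, and the differences of Cd63 (0.44, limma adjusted p = 0.083), Ctsa (0.33, adjusted p = 0.0614) and Gla (0.39, adjusted p = 0.11) did not. In that fit 10.0% of all genes were called, against 13.0% with all 12 arrays. R172K replicates 1 and 2, which it keeps, also lay above the control range of the macrophage sum. That fit is therefore no test of the part of the markers. Summed over the 7 atrial muscle markers the intensity was 5651.5 to 29219 in control, 1081.4 to 10192.1 in R140Q and 11048.4 to 21176 in R172K arrays. Every R172K array thus lay above every R140Q array in this sum. All 7 differences were negative in R140Q against control and positive in R172K against R140Q. None passed in either comparison with control, and 1 passed between the mutants (14.3%, against 1.48% of all genes). The part of these cell types in the lysosomal results was not tested.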

How the data were processed

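Heart RNA in 12 samples, 4 per group, was measured on Affymetrix arrays. The authors deposited 1 intensity per probe set and array, which the submitters' processing notes give as RMA values, with the version and annotation not given in the sources used here. RMA brings arrays to 1 distribution and so hides a shift common to most genes. The deposited values are on a linear intensity scale, judged from the values (array medians 74.8 to 78.0, highest 17591). The test was planned for log2 values, so log2 was taken, with no pseudocount. No detection calls were used, and dim genes stayed in. Of 34760 probe sets 21640 carried 1 symbol, giving 19937 genes. The labels were not checked against Idh2, because it is not stated whether its probes match the mutant transcript.

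Group means were fitted with limma 3.58.1 (lmFit, eBayes, two-sided) in R 4.3.3 to all 12 arrays, with 9 residual degrees of freedom plus 3.54 from eBayes and Benjamini-Hochberg adjustment over all genes. The fit was tested on simulated data. The number of arrays limits the precision.

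All 33 genes are accounted for, with values per array for those called. Of the wider list (146 genes, 138 measured), up to 3 called genes per role with the smallest p were named. Values per array of Npc1, Becn1, Wipi1, Gabarapl1, Galns, Atp6v1h, Atg10 and Bcl2 were added after their values were seen. So were the names Ccr2, Fcgr3, Lgals3, Cdh5, Kdr and Esam, and those of the 11 fibroblast markers and of the cardiomyocyte markers. The members, lists and alternatives were chosen with earlier results of these data known. Alternatives were a replicate block, the arrays of only the 2 groups compared, other probe set rules, a filter on dim genes, other normalization and variance models, array weights, a stricter threshold, and leaving out arrays.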

Additional observations from a re-analysis of the deposited data

Results flagged for a closer look

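In 60 genes, each group of 4 arrays was examined for 1 array apart from the other 3, measured as its gap to the nearest divided by the group's range and flagged above Dixon's 95% critical value. Chance flags about 1 in 20 groups, or 9.0 of the 180 examined, and 13 were found. R172K replicate 3 accounted for 4: it was highest for Npc1 (0.877) and lowest for Galns (0.972), Atp6v1h (0.978) and Atg4a (0.847), in each case the side of the control arrays. R172K replicate 4 was highest for Gusb (0.993) and lowest for Gabarapl1 (0.928). R140Q replicate 4 was lowest for Stbd1 (0.992) and Atp6v1b2 (0.836), R140Q replicate 3 highest for Ctsb (0.938), R140Q replicate 1 lowest for Tpp1 (0.964) and R140Q replicate 2 lowest for Atp6v1a (0.848). Among control arrays, replicate 1 was lowest for Ctsb (0.916) and replicate 3 highest for Rraga (0.950).

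The effects of the mutants differed, by the direct limma contrast of R172K with R140Q, for 6 of 138 genes of the wider list (4.35%, against 1.48% of all genes). R172K was lower for Idua (-0.344, adjusted p = 0.0287), the calcium channel gene Tpcn1 (-0.538, adjusted p = 0.0453), Ulk2 (-0.459, adjusted p = 0.0406) and Atg10 (-0.557, adjusted p = 0.0378). R172K was higher for Atp6v1b2 (0.632, adjusted p = 0.0452) and Ambra1 (0.335, adjusted p = 0.045). Leaving out 1 array at a time gave counts from 0 to 28, with 28 without R172K replicate 3, where 7.91% of all genes were called.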

How the results depend on the processing

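Each count of changed genes was recomputed under 23 alternatives, a stricter threshold and 22 other fits. Shares of all genes called under the same setting follow the counts in parentheses. Of 33 genes in R172K against control, 5 passed in the fit reported, 2 at an adjusted p under 0.01 (3.88%), 3 with the replicate block (10.1%), 2 with only the arrays of both groups (8.97%), 3 with every probe set adjusted (7.62%), 8 without the dimmest genes (21.5%), 16 with array weights (22.5%) and 10 without control 3, R172K 3 and R140Q 4 (17.3%), and leaving out 1 array gave 2 to 16. With the mean of a gene's probe sets 6 passed (13%), the 5 of the fit reported and Map1lc3b, which was lower. In R140Q against control, array weights gave 3 (Npc1, Becn1 and Gabarapl1, 9.09% against 8.28% of all genes) in place of 0, and leaving out 1 array 0 to 1. In R172K against R140Q array weights gave 7 (8.90%) and the fit without the 3 arrays 4 (4.04%) in place of 0, and leaving out 1 array 0 to 6.

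Of the 138 further genes in R140Q against control, 4 passed in the fit reported, 0 at an adjusted p under 0.01 (0.366%) and 1 with the replicate block (0.983%). With only both groups' arrays 15 passed (6.73%), with every probe set adjusted 0 (0.78%) and with array weights 16 (8.28%), and leaving out 1 array gave 0 to 10. In R172K against control, 9 passed at an adjusted p under 0.01 (3.88%) and 22 (8.97%) with only both groups' arrays in place of 38, and leaving out 1 array gave 16 to 58. In R172K against R140Q the count of 6 became 0 at an adjusted p under 0.01 (0.00502%) and 0 with the replicate block (0.0552%). It was also 0 with only both groups' arrays (0.0451%) and with every probe set adjusted (0.0144%). In these settings hardly any gene was called at all. The count was 25 with array weights (8.90%) and 14 without the 3 arrays (4.04%), and leaving out 1 array gave 0 to 28. The cause of these shifts was not tested.

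Grn and Ctsl passed in all 22 other fits, Ctsa in 16, Cd63 in 12 and Gla in 8. Ctsd in R172K against R140Q, -0.15 in the fit reported, was 0.017 (adjusted p = 0.948) without control 3, R172K 3 and R140Q 4. Ctsz, 0.21, ran from -0.041 (adjusted p = 0.919) without R172K replicate 4 to 0.361 without R172K replicate 3. The cause was not tested. Same-numbered arrays showed no clear joint deviation (correlations from -0.336 to 0.152, and 1, 3 and 0 of 8 arrays correlated best with their own number). This check cannot exclude a pairing whose effect is small beside the other spread among arrays. With the replicate block, Grn, Ctsl and Ctsa passed in R172K hearts, and Cd63 (adjusted p = 0.0533) and Gla (adjusted p = 0.0769) did not.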
